A study of Homo sapiens with 6 samples.

Results

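The genes described here are 9 growth arrest and p53 response genes: CDKN1A, MDM2, GADD45A, GADD45B, BTG1, BTG2, CCNG1, SESN1 and PLK2. They were chosen by symbol, and each was read from the RefSeq messenger row with the most summed depth, out of 11227 genes with a row in any table. The measurements are ribosome footprints of CHL-1, a long-established line of human melanoma cells, grown in DMEM with FBS. All libraries came from lysates made with cycloheximide, a drug that freezes ribosomes in place. The parental group is the untreated line. The CRISPR group is the line edited at SNORD50A/B, a pair of small nucleolar RNA genes, and its titles name no drug. Cells of the third group were given 10 mM AZC, a proline analog that is built into protein, together with the proteasome inhibitor MG132 at 20 µM, over 20 minutes, which the submitters call ribosomal stress. No control-edited line is among the samples, whether the edited line is 1 clone was not given in the sources used here, and the edit was taken from the labels. No cells given AZC alone, MG132 alone or vehicle are among the samples either, so the effects of AZC and of MG132 cannot be told apart. Each group holds 2 libraries, 1 of them labelled as having ribosomal RNA removed, but the values come as 1 table per condition. No spread between samples can therefore be computed, and no difference below carries a test or a p-value.

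When p53 is stabilised by DNA damage, nucleolar stress or other insults, it binds response elements near its target genes and raises their transcription. Its targets slow the cell cycle, help repair and, through MDM2, shut p53 down again. Several of the genes described here are also induced without p53, among them GADD45B and BTG1, by stress kinases, cytokines and growth factors. CDKN1A is a classic readout of whether the pathway works.

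The level of a gene is its summed depth over 400 bins (100 of 5′ UTR, 200 of coding sequence and 100 of 3′ UTR), divided by the total of its table and multiplied by 1000000. It is not per length, so levels are compared between tables for the same gene and never between genes. Total depth in units of 1000000 bases was 473.7 for parental, 586.4 for CRISPR and 367.3 for AZC + MG132. Depth counts bases and not reads, so the number of distinct fragments behind a value is unknown. Genes entered a comparison when their summed depth exceeded a minimum in each of its tables, the lower quartile of all row sums, which equals a level of 6.73 for parental, 6.30 for CRISPR and 7.12 for AZC + MG132. Past 2-fold means a log2 ratio of at least 1 in size and is a limit of size. By that limit 3.26% of 7277 compared genes differed between AZC + MG132 and parental cells, with 0.866% of all compared genes higher and 2.39% lower. Of those 237 genes 26.6% were higher. Genes were also called anew under other scalings. With the median ratio set to 0, 39.3% of 229 genes past 2-fold were higher. With totals taken without the most abundant 1% of rows, 44.7% of 235 were. Between CRISPR and parental cells 2.4% of 7540 compared genes were past 2-fold, 1.1% higher and 1.3% lower. Of 8 melanocyte lineage markers, SOX10 had levels of 396 in parental, 353 in CRISPR and 323 in AZC + MG132 cells and S100B had 29.8, 32.5 and 41.4. DCT had 4.14, 15.8 and 7.55 and MITF 5.97, 9.47 and 3.94, both highest in CRISPR cells, while PMEL and MLANA were below the minimum and TYR and TYRP1 had no row. Of the markers of other cell types, KRT10 (keratinocyte) had levels of 11.6, 7.77 and 8.28, PTPRC (leukocyte) had 2.26 in the CRISPR table alone, and the others had no row.

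Only 4 of the 9 genes were above the minimum in every table: MDM2, GADD45B, BTG1 and CCNG1. GADD45A passed it in the AZC + MG132 table alone and SESN1 in the CRISPR table alone. CDKN1A, BTG2 and PLK2 passed it in no table, and of these CDKN1A had no row in the parental table and PLK2 none in the CRISPR table. Over all genes 7943 passed it for parental, 8121 for CRISPR and 7564 for AZC + MG132.

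Promoter windows of the RefSeq annotation (GRCh38.p14, the 250 bases before each start) show which sequences known to recruit p53 or stress factors lie near these starts. The tables hold no promoter signal, so these letters are a description and were not tied to any value below. Windows were at hand for 8 of the genes, all but GADD45A, 14 windows in all. Some windows of MDM2 and CCNG1 belong to neighbouring starts and share bases, so the same site can be counted in more than 1 window. Sequences are printed 5′ to 3′ on the strand of the gene, with the matched element in capitals. The p53 consensus, searched on both strands with at most 3 mismatches, matched in 3 windows, against 4.36% of 35116 windows of the same length. MDM2 has it in the windows of a pair of neighbouring starts, with 2 mismatches, and SESN1 in 1 window, with 3 mismatches. For this element only the closest match of each window was kept, so a window may hold further matches that are not listed. The CDKN1A window held none of the elements searched. Bases outside the windows were not searched, so a gene without a match here may still have a p53 site.
MDM2, chr12:68808918-68808947, plus strand, 99 to 70 bases before a start: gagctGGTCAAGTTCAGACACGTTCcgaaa
SESN1, chr6:109009013-109009042, minus strand, 54 to 25 bases before a start: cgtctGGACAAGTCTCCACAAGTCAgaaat
GADD45B and BTG1 have a TATA box (TATAAA on either strand) in their windows, which 10.7% of all windows hold, and no other window of the 14 has one.
GADD45B, chr19:2476084-2476113, plus strand, 43 to 14 bases before the start: aatgttcaagtcTATAAAagtcggtgccgg
BTG1, chr12:92145862-92145891, minus strand, 45 to 16 bases before the start: ttttcgtggcacTATAAAgggtgctgcacg
The cyclic AMP response element, the site of the CREB and ATF factors (TGACGTNA, both strands), is in 1 window of BTG1 and 1 of PLK2, against 2.67% of all windows.
BTG1, chr12:92146023-92146052, minus strand, 206 to 177 bases before the start: ttacaagcggaTTACGTCAgctcctccctc
PLK2, chr5:58460145-58460174, minus strand, 88 to 59 bases before the start: ggcataggccgTGACGTGAtgtcgcgtatc
Among the other elements searched on both strands, the CCAAT box (CCAAT) was in 11 of the 14 windows against 32% of all windows, and AP-1 (TGANTCA) in the 2 MDM2 windows that hold the p53 match, against 6.57%. The letters of the heat shock element core (GAANNTTC, 5.78% of all windows) and of the ATF4 element (TGATGNAAN, 3.13%) were in none of the 14.

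MDM2 is the ubiquitin ligase that marks p53 for degradation and is itself a p53 target. Its level was 27.4 in parental, 39.5 in CRISPR and 27.9 in AZC + MG132 cells. The CRISPR table was the high one, 1.44-fold above parental (log2 ratio 0.53), and the AZC + MG132 level lay within 0.03 log2 units of parental. Both ratios are short of 2-fold, and the second changes direction with the bins used, from -0.78 to 0.24 over the alternatives. The regions of the MDM2 messenger differed more than the sum. The 5′ UTR level was 2.89 in parental, 10.4 in CRISPR and 6.17 in AZC + MG132 cells, 3.60-fold and 2.13-fold above parental. The coding level was 21.9, 25.1 and 17.1 in the same order, 1.15-fold and 0.782-fold of parental. Reads of the 5′ UTR thus made up 10.5% of MDM2 depth in parental, 26.4% in CRISPR and 22.1% in AZC + MG132 cells. Within the coding sequence of MDM2 the AZC + MG132 table was higher than parental in the first 100 bins (11.3 against 9.10) and lower in the last 100 (5.83 against 12.8). The last 20 coding bins of MDM2 held 3.20 in parental, 3.68 in CRISPR and 0.781 in AZC + MG132 cells. Coding bins with any depth numbered 191 of 200 in parental, 140 in CRISPR and 146 in AZC + MG132 cells, so the MDM2 profiles of CRISPR and AZC + MG132 cells are broken by empty stretches.

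GADD45B, an adaptor that activates the stress kinases p38 and JNK through MTK1, was the compared gene here with the largest difference in AZC + MG132 cells. Its level was 9.89 in parental, 20.2 in CRISPR and 62.0 in AZC + MG132 cells, so parental was lowest and the treated cells highest. The AZC + MG132 level was 6.27-fold parental (log2 ratio 2.65), and 99.9% of the compared genes had a smaller ratio. The parental level is near the minimum of 6.73, and GADD45B was not compared at 4 times the minimum. The CRISPR level was 2.04-fold parental (log2 ratio 1.03), just past the limit, and 99.0% of compared genes had a smaller ratio. With coding bins only, divided by the total coding depth, the AZC + MG132 ratio of GADD45B was 2.35 and the CRISPR ratio 0.75, which is short of 2-fold. In these bulk footprints, with no RNA measured beside them, more ribosomes per messenger, more messenger and a change in the mix of cells cannot be told apart, here and for every gene below.

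Leader and coding sequence of the GADD45B messenger held more depth in treated cells, and the 5′ UTR more so than the coding sequence. Its 5′ UTR level was 2.09 in parental, 6.77 in CRISPR and 23.7 in AZC + MG132 cells, and its coding level 7.80, 13.0 and 36.4. Against parental the 5′ UTR was 11.4-fold and the coding sequence 4.67-fold in AZC + MG132 cells, and 3.24-fold and 1.66-fold in CRISPR cells. The first 100 and the last 100 coding bins had nearly the same AZC + MG132 ratio (log2 2.22 in each), so the higher coding level was not limited to the start of the reading frame. In the 5′ UTR, bins 21 to 40 held 0.171 in parental, 0.321 in CRISPR and 5.08 in AZC + MG132 cells. Bins 41 to 60 held 0.272, 2.89 and 7.29 in the same order. The bins of the 5′ UTR next to the start codon (81 to 100) held 1.26, 2.75 and 7.40, and the first 20 coding bins 1.68, 3.40 and 9.69. The middle of the 5′ UTR was thus nearly empty in parental cells and filled in AZC + MG132 cells, while depth around the start codon was present in every table. The highest coding bin of GADD45B was bin 105 of 400 in parental and bin 103 in CRISPR and AZC + MG132 cells, within the first 20 coding bins in each table.

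**Figure D1:**
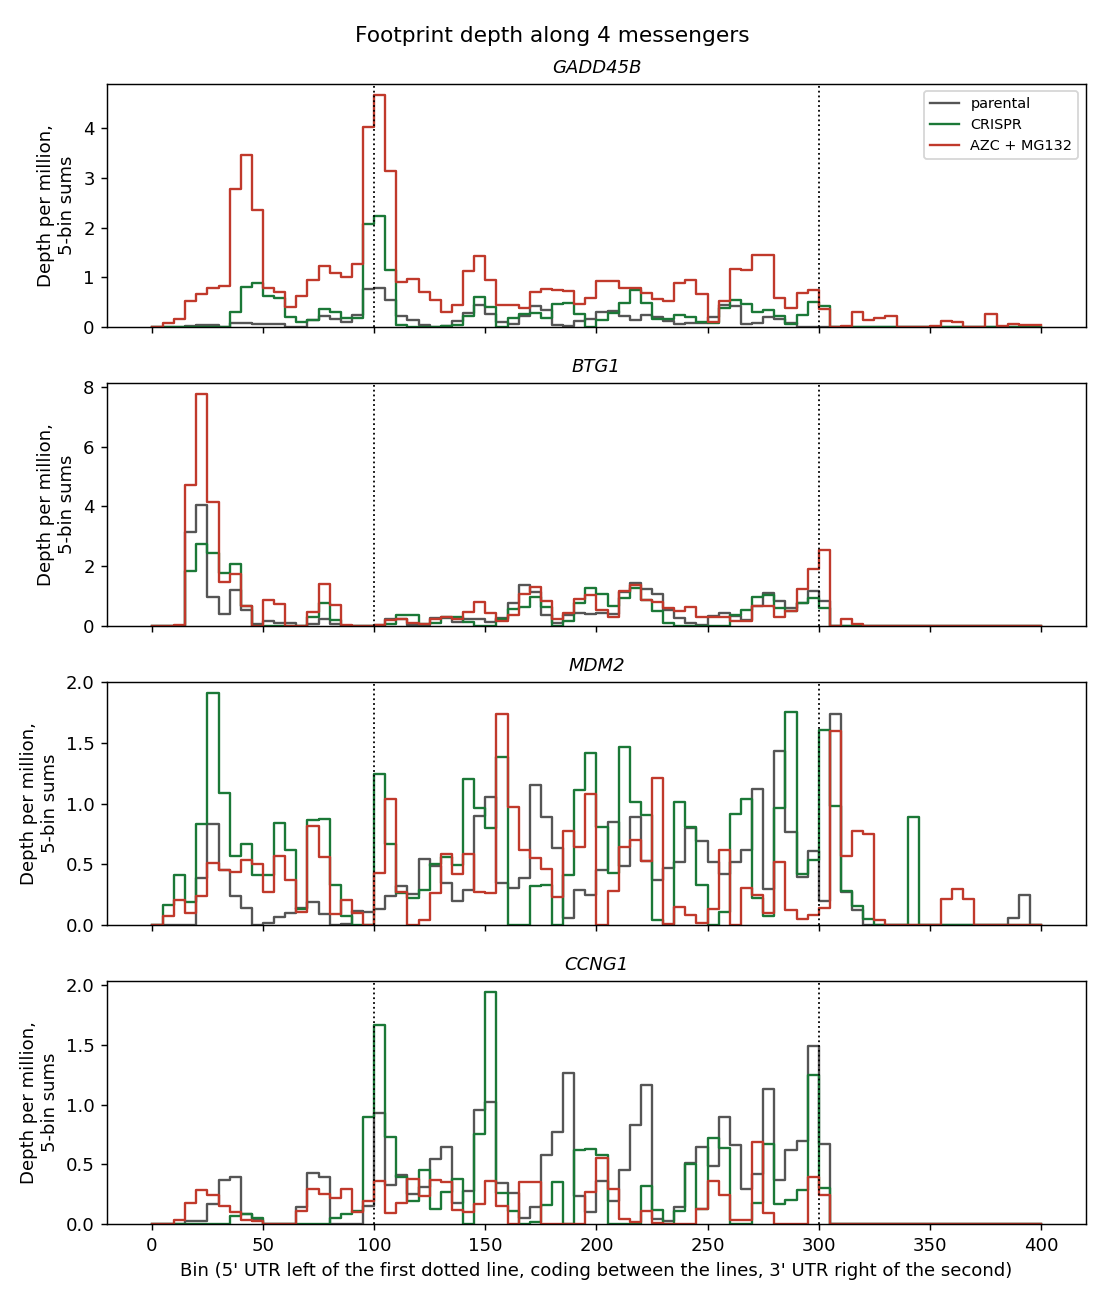
Level (normalised depth per 1000000) along the messenger in windows of 5 bins for GADD45B, BTG1, MDM2 and CCNG1 (100 bins of 5′ UTR, 200 of coding sequence between the dotted lines and 100 of 3′ UTR), 1 line per table. GADD45B shows the filled 5′ UTR and raised coding sequence in AZC + MG132 cells, BTG1 the peak in 5′ UTR bins 21 to 40 (6.63, 9.01 and 15.1 in parental, CRISPR and AZC + MG132), and CCNG1 a lower coding sequence in AZC + MG132 cells.

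GADD45A, the relative that p53 induces after DNA damage, was thinly covered. Its level was 4.80 in parental, 3.93 in CRISPR and 7.47 in AZC + MG132 cells, above the minimum in the last alone. The AZC + MG132 ratio of GADD45A would be 0.64 on the log2 scale and the CRISPR ratio -0.29, and neither was counted. Depth in its 5′ UTR was 0.171, 0 and 1.56 in parental, CRISPR and AZC + MG132 cells, and its coding level 4.35, 3.72 and 5.32.

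BTG1 and BTG2 are antiproliferative proteins that bring the CCR4-NOT deadenylase to messengers, and BTG2 is the one known as a direct p53 target. BTG1 had a level of 32.4 in parental, 31.4 in CRISPR and 50.6 in AZC + MG132 cells. The treated table stood 1.56-fold above parental (log2 ratio 0.64), short of 2-fold, with 94.6% of compared genes lower, and the CRISPR table lay 0.05 log2 units below parental. The difference in AZC + MG132 cells sat mainly in the 5′ UTR, where the median log2 ratio over all compared genes was also raised, at 0.71. The 5′ UTR level of BTG1 was 11.1, 12.8 and 24.8 in parental, CRISPR and AZC + MG132 cells, 2.22-fold parental in the last, while its coding level was 20.4, 17.99 and 22.9, or 1.12-fold. BTG1 5′ UTR depth was 54.5% of its coding depth in parental, 71.1% in CRISPR and 108% in AZC + MG132 cells, so in treated cells the leader held more depth than the reading frame. One stretch carried much of it. Bins 21 to 40 of the BTG1 5′ UTR held 6.63, 9.01 and 15.1, which is 20.4%, 28.7% and 29.9% of all its depth. The highest 5′ UTR bin of BTG1 was bin 23 in each of the 3 tables, with levels of 1.11, 0.674 and 1.90 in parental, CRISPR and AZC + MG132 cells. The peak therefore had the same place in every condition and differed in height. In CRISPR cells that bin was lower than in parental cells, although the stretch of 20 bins it lies in held more.

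BTG2 stayed under the minimum, with levels of 2.61 in parental, 2.33 in CRISPR and 1.99 in AZC + MG132 cells. Its values lie close together and support no ratio.

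CDKN1A encodes p21, the inhibitor of cyclin-dependent kinases that carries much of the p53 arrest. It had no row in the parental table and levels of 2.69 in CRISPR and 2.78 in AZC + MG132 cells, both under the minimum. All 4 of its RefSeq rows gave levels between 1.81 and 2.78. How rows were selected for the tables was not given in the sources used here, so no fold was computed against parental, and a missing row is not read as 0.

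CCNG1 encodes cyclin G1, a p53 target that brings the phosphatase PP2A to MDM2. It was the one compared member lower past 2-fold in AZC + MG132 cells. Its level was 24.0 in parental, 16.6 in CRISPR and 9.65 in AZC + MG132 cells, the reverse order of GADD45B. Against parental it was 2.48-fold lower in AZC + MG132 cells (log2 ratio -1.31), with 0.77% of compared genes lower still, and 1.44-fold lower in CRISPR cells (log2 ratio -0.53). The difference lay in the coding sequence, where CCNG1 had 21.1, 14.96 and 6.86 in parental, CRISPR and AZC + MG132 cells, 0.326-fold parental in the last. Its 5′ UTR level was 2.22, 1.35 and 2.54. In AZC + MG132 cells it was 1.14-fold parental, a log2 ratio of 0.19 beside a median of 0.71 over all compared genes. The 5′ UTR share of CCNG1 depth therefore stood at 9.28%, 8.11% and 26.3%. In CRISPR cells the first 100 coding bins of CCNG1 were near parental (9.07 against 9.62) and the last 100 lower (5.90 against 11.4). Covered coding bins of CCNG1 numbered 186 in parental, 128 in CRISPR and 113 in AZC + MG132 cells. The AZC + MG132 level of 9.65 is near the minimum of 7.12, and CCNG1 was not compared at 4 times the minimum.

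SESN1, a leucine-binding stress protein that holds back mTORC1, was seen mainly in CRISPR cells. Its level was 2.96 in parental, 11.01 in CRISPR and 2.67 in AZC + MG132 cells. The CRISPR value was 3.72-fold parental (log2 ratio 1.89), but the parental value is under the minimum, so this ratio is outside the counts. The higher CRISPR level of SESN1 lay mainly in its coding sequence, with 1.58, 10.7 and 1.57 in parental, CRISPR and AZC + MG132 cells. The 10.7 of the CRISPR table came from 78 of 200 coding bins, against 41 in parental and 33 in AZC + MG132 cells. Its 5′ UTR held 1.38, 0 and 1.10.

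PLK2, a polo-like kinase induced by p53 and by serum, had levels of 1.77 in parental and 4.69 in AZC + MG132 cells and no row in the CRISPR table. Both values are under the minimum. Nearly all of the depth of PLK2 was in the coding sequence, 1.77 in parental and 4.63 in AZC + MG132 cells.

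Across the members, 4 could be compared in each comparison. In AZC + MG132 cells 1 was higher past 2-fold (GADD45B), 1 lower (CCNG1) and 2 neither, against 3.26% past 2-fold among all compared genes. Their median log2 ratio was 0.33, beside -0.05 over all compared genes. In CRISPR cells 1 of 4 was higher past 2-fold (GADD45B) and none lower, against 2.4% of all compared genes, with a median of 0.24 beside 0.0040. That count was 0 under 6 alternatives, among them coding bins only, and the median lay below 0 under 3, down to -0.0871 with the last 100 coding bins. With 4 genes these counts and medians describe the genes named and give no direction for p53 targets as a class. Both comparisons use the same parental table, so a low or high parental value moves both ratios of a gene the same way.

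**Figure D2:**
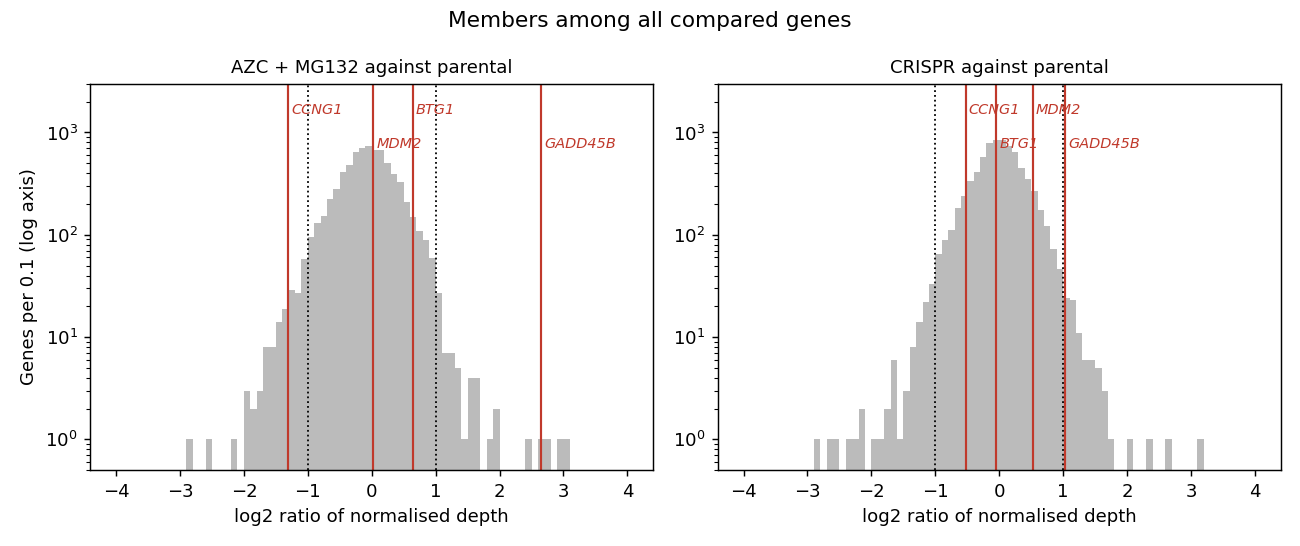
Number of compared genes (log axis, grey bars, 0.1 log2 units wide) by log2 ratio of level against parental, for AZC + MG132 and for CRISPR, with a red line for each compared member and dotted lines at the 2-fold limits of 1 and -1. GADD45B lies at 2.65 and 1.03 and CCNG1 at -1.31 and -0.53, while MDM2 and BTG1 stay inside the limits.

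The 4 compared members had one feature in common in AZC + MG132 cells: the part of their depth in the 5′ UTR was larger than in parental cells. The share was higher by 11.6 percentage points for MDM2, 17.2 for GADD45B, 14.6 for BTG1 and 17.0 for CCNG1. Members under the minimum in 1 or both tables rest on little depth and were not counted. Their share was higher by 17.3 points for GADD45A, 11.4 for BTG2 and 1.16 for PLK2. The 5′ UTR levels behind these in AZC + MG132 cells were only 1.56, 0.226 and 0.0545. GADD45A passed the minimum in AZC + MG132 cells alone, and BTG2 and PLK2 had no 5′ UTR depth in parental cells. SESN1 went the other way in the row read here, from 46.7% to 41.2%. In another SESN1 row the 5′ UTR level went from 0 to 0.147. The median difference of the 4 compared members was 15.8 points, beside 3.15 over all compared genes. Of all compared genes 79.9% had a larger share, and the middle 50% of differences lay between 0.46 and 7.22 points. Of the compared genes 88.5% had a smaller difference than MDM2, 96.2% than GADD45B, 93.8% than BTG1 and 96.1% than CCNG1. The whole table moved the same way, with 10.0% of parental depth and 15.7% of AZC + MG132 depth in 5′ UTR bins. In CRISPR cells the difference was 15.8 points for MDM2, 12.5 for GADD45B, 6.37 for BTG1 and -1.17 for CCNG1, a median of 9.41 beside 0.07 over all compared genes. The middle 50% of differences in CRISPR cells lay between -1.49 and 2.51 points. There 98.3% of compared genes had a smaller difference than MDM2, 96.9% than GADD45B, 90.1% than BTG1 and 27.7% than CCNG1. The whole CRISPR table had 10.7% of its depth in 5′ UTR bins, close to parental, so the larger MDM2, GADD45B and BTG1 shares in CRISPR cells were not matched by the table as a whole. They were not particular to the members, since CDKN1B, a relative of CDKN1A, had 37.2% in CRISPR against 16.1% in parental cells. MDM2, GADD45B and BTG1 had fewer covered coding bins in CRISPR than in parental cells, and the part of this in their shares was not tested.

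**Figure D3:**
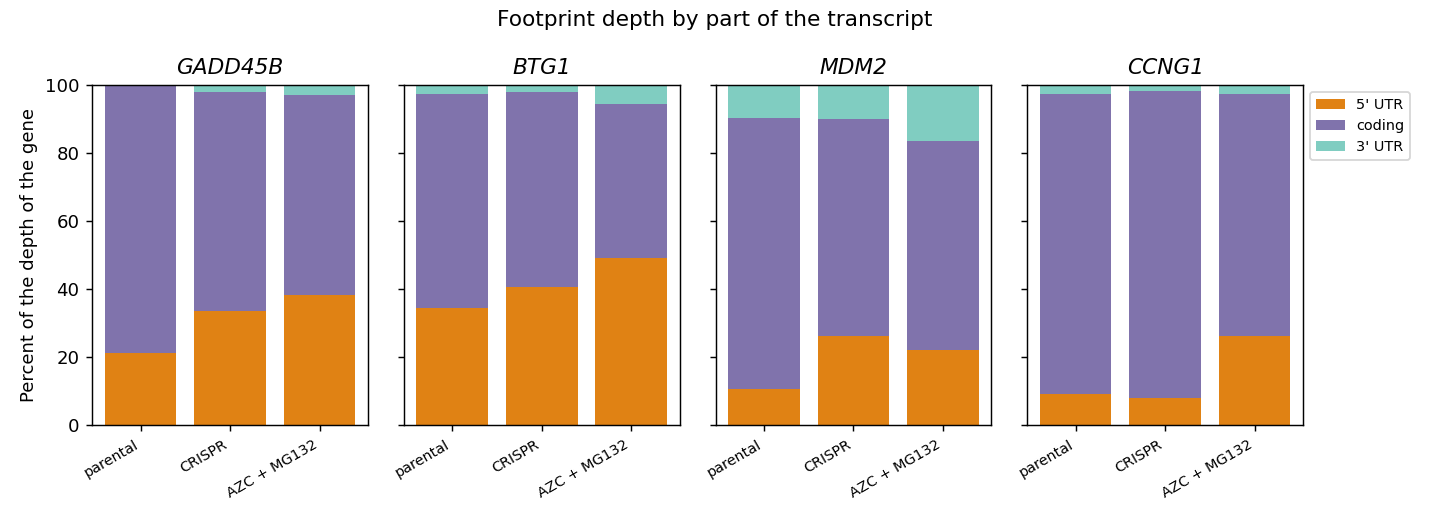
Percent of the depth of MDM2, GADD45B, BTG1 and CCNG1 in the 5′ UTR, the coding sequence and the 3′ UTR in each table. The 5′ UTR part is larger in AZC + MG132 than in parental cells for each of the 4 genes, from 9.28% to 26.3% for CCNG1 and from 34.4% to 49.0% for BTG1.

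The start of the coding sequence was read by the 5′ share, the mean depth of the first 20 coding bins over the mean of all 200. It was 0.43 in parental, 0.96 in CRISPR and 1.02 in AZC + MG132 cells for MDM2, and 2.16, 2.63 and 2.66 for GADD45B. BTG1 had shares of 0.27, 0.43 and 0.25 and CCNG1 0.92, 2.0 and 1.47 in the same order. The log2 ratio of these shares to parental, the 5′ shift, had a median of 0.49 over the 4 genes in AZC + MG132 cells, beside 0.59 over all compared genes, so the members did not stand out. In CRISPR cells the 5′ shift was 1.14 for MDM2, 0.28 for GADD45B, 0.67 for BTG1 and 1.13 for CCNG1, a median of 0.90 beside 0.05. The median shift of the 4 genes in CRISPR cells was 0.49 when the first 40 coding bins were used and 0.53 with coding bins 6 to 20. Fewer coding bins of MDM2, BTG1 and CCNG1 were covered in the CRISPR table (140, 138 and 128) than in the parental one (191, 187 and 186), and the part of this in their shifts was not tested.

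The wider pathway was read from lists that do not contain the members. Of 32 other p53 targets 17 could be compared in AZC + MG132 cells, with 1 higher past 2-fold and none lower, and a median log2 ratio of 0.29 beside -0.05. The gene past 2-fold was PMAIP1, which encodes the BH3-only protein NOXA, at 26.6 against 9.14 in parental cells (log2 ratio 1.54). TRIAP1, an apoptosis inhibitor in mitochondria, stood at 25.6 against 13.2 (0.95), and TNFRSF10B, the death receptor DR5, at 40.9 against 25.8 (0.66). PCNA, the sliding clamp of DNA replication, stood at 424 against 307 (0.47). In CRISPR cells 14 of the 32 could be compared and none of these was past 2-fold in either direction, with a median of 0.01. The minimum left out 3 further targets that were above it in parental cells, under it in CRISPR cells and more than 2-fold lower there. Among them were PHLDA3, a repressor of AKT, at 2.71 against 9.93 and PMAIP1 at 3.81 against 9.14. Targets above the minimum in parental cells alone can hardly be higher in CRISPR cells, so that direction follows from the filter. The share of all genes left out in this way was not computed. ZMAT3, also among the 32, was above the minimum in CRISPR cells at 7.85. It had no parental row and so has no ratio. The count and the median therefore do not cover targets with low values or no row in 1 of the tables. The values of TRIAP1 and RPS27L, a ribosomal protein relative, were the farthest from parental among the compared ones, with log2 ratios of 0.78 and 0.76.

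Of 16 regulators of p53, 14 were compared in each comparison and none passed 2-fold, with medians of -0.16 in AZC + MG132 and 0.11 in CRISPR cells. MDM4, the relative of MDM2 that masks the p53 activation domain, stood at 12.5 in AZC + MG132 against 7.81 in parental cells (0.68), and the acetyltransferase CREBBP at 25.04 against 44.2 (-0.82). RPL5, RPL11 and RPL23, ribosomal proteins that bind MDM2 when ribosome assembly is disturbed, had AZC + MG132 ratios of -0.37, -0.47 and 0.12. RCHY1, another ubiquitin ligase of p53, was above the minimum in AZC + MG132 cells alone, at 10.4 against 4.87, and so stands outside these counts. In CRISPR cells the ratio of CREBBP was 0.38.

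Partners and opponents of the members were read next. Of 13 CCR4-NOT partners of the BTG proteins 10 were compared in AZC + MG132 cells, 8 of them below 0. Their median was -0.43 beside -0.05 over all compared genes, with none higher and 1 lower past 2-fold. That gene was PABPC1, the poly(A)-binding protein, at 64.3 against 364 in parental cells (-2.50), and reads of PABPC1 can be shared with near-identical copies. CNOT3, a scaffold subunit of the complex, stood at 16.4 against 30.8 (-0.91), and PRMT1, a methyltransferase that binds BTG1, at 144 against 152 (-0.09). A list of 14 genes held cyclins, CDKs and proteins downstream of them, and p21 inhibits the CDKs. Of these 14 genes 10 were compared in AZC + MG132 cells, 8 of them below 0. None passed 2-fold, and the median was -0.26 beside -0.05 over all compared genes. RB1 was at 22.1 against 34.0 (-0.63), CCNE2 at 35.7 against 49.3 (-0.46), CCNB1 at 284 against 301 (-0.08) and CDK1 at 199 against 202 (-0.03). Rescaling moves each AZC + MG132 ratio up by as much as 0.07, past the -0.03 of CDK1. The count below 0 in this list therefore depends on the scaling. In CRISPR cells neither list had a compared gene past 2-fold, with medians of -0.03 and 0.03. The compared genes farthest from parental there were PRMT1 (-0.85) and CNOT3 (-0.71) in the one list and CCND3, a D-type cyclin (0.55), in the other.

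GADD45B and PMAIP1 are also targets of stress factors other than p53, so lists of such genes were read beside them. Of 24 immediate early genes 14 were compared in AZC + MG132 cells, with 5 higher past 2-fold (FOS, IER2, KLF10, CCN1 and DUSP1), none lower and a median of 0.71. FOS, a subunit of AP-1, stood at 81.6 against 15.02, and DUSP1, a phosphatase of the stress kinases, at 53.1 against 13.8. MCL1, an anti-apoptotic BCL2 relative, stood at 107 against 75.7, while NR4A1, a nuclear receptor, was lower at 58.1 against 83.7 (-0.53). A further 4 were above the minimum in AZC + MG132 cells alone and more than 2-fold higher there (ATF3, IER5, JUN and ZFP36), outside these counts. Genes above the minimum in 1 table alone tend to be higher in that table because of the filter. Their direction therefore adds nothing to the counts, and the share of all such genes past 2-fold was not computed. Of 16 genes of the integrated stress response 9 were compared, with 3 higher (ATF4, DDIT3 and DDIT4), none lower and a median of 0.93. PHGDH, an enzyme of serine synthesis, stood at 222 against 192 (0.21), and PPP1R15A, which was under the minimum in parental cells and so not counted, at 44.8 against 5.64. In CRISPR cells neither list had a compared gene past 2-fold, and their medians were -0.32 and -0.04. EGR1 (3.42 against 11.1) and JUNB (4.51 against 11.9) were under the minimum in CRISPR cells, and more than 2-fold lower there, and so are outside that count. Among the compared ones DUSP2 stood at -0.91 and FOS at 0.63 in CRISPR cells, and ATF5 at -0.64. Lists of immediate early and stress response genes had larger medians in AZC + MG132 cells than the 0.29 of the other p53 targets, a difference that was not tested. SESN2 is in both the p53 target list and the stress response list. Rescaling to the median ratio, or to totals without the most abundant 1% of rows, moves these medians by at most 0.07 and changes the sign of none of those given.

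**Figure D4:**
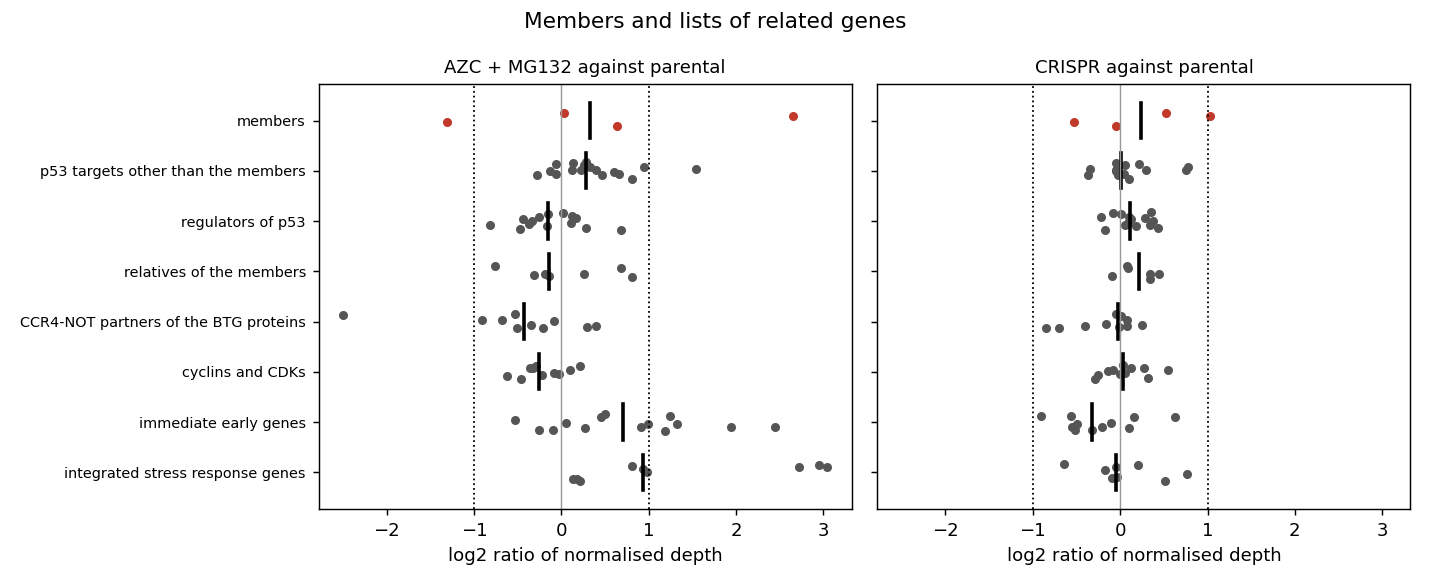
Log2 ratio against parental of each compared gene of the 7 lists and of the members (points), with list medians, for AZC + MG132 and for CRISPR on the same axis. In AZC + MG132 cells the immediate early and integrated stress response lists have medians of 0.71 and 0.93 and the other p53 targets 0.29, and in CRISPR cells no list gene plotted is past 2-fold. Genes under the minimum in either table are not plotted.

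Genes whose pair of ratios was most like that of GADD45B, by distance in the plane of both log2 ratios over 7073 genes, were ATF4 (distance 0.40), FOS (0.45) and DDIT3 (0.65). ATF4, whose translation rises when eIF2 is phosphorylated, had levels of 135 in parental, 231 in CRISPR and 1048 in AZC + MG132 cells. DDIT3 had 7.01, 10.0 and 58.0 in the same order. The nearest to CCNG1 were CDC25B (0.057), SCARF2 (0.076) and UBN1 (0.11), and CDC25B, a phosphatase that activates CDK1, had levels of 31.4, 22.6 and 12.8. Each likeness rests on 2 ratios that share the parental table. ATF4 and DDIT3 differ from GADD45B in where their depth lay: the 5′ UTR share went from 74.8% in parental to 31.7% in AZC + MG132 cells for ATF4 and from 69.5% to 40.8% for DDIT3, while that of GADD45B went from 21.1% to 38.3%.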

How the data were processed

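Ribosome footprints of 6 libraries in 3 groups were analysed from 3 tables, 1 per condition. Per the submitters' processing notes, reads were processed with Bowtie2 and TopHat2, without versions, on build hg19; how the libraries of a group were combined was not given in the sources used here. Each table holds deposited values, entered as a score, that are on a log2 scale: log2(x + 1) with 2 decimals kept by the authors, in 400 bins per transcript. In coding bins x also held the deposited value of the row above, which was subtracted (4.38% of coding depth for parental, 3.42% for CRISPR and 5.33% for AZC + MG132). After that, 100% of low coding bins were whole. The last 3 rows of each table, summaries, were left out. That x is summed base depth, and where regions begin, was read from the values.

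Symbols came from the RefSeq gene table of GRCh38.p14, used for names only. Log2 ratios used a pseudocount of 0.5 on summed depth. The steps were tested on simulated tables. Python 3.11.15, numpy 2.4.6 and pandas 2.3.3 were used. Members and lists were chosen with earlier results of these data known. Named by rule were all members, from each list the 2 compared genes of largest ratio and the 2 of highest mean level, and the 3 genes nearest to each of the 2 members farthest from 0. Not every gene this gives for CRISPR cells is printed. RPL11, IER2, KLF10, CCN1, DDIT4, ZMAT3, TOB1 in AZC + MG132 cells and the list genes described as under the minimum in 1 table were added after their values were seen. One gene of a list is not reported here and was left out of that list.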

Additional observations from a re-analysis of the deposited data

How the results depend on the processing

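GADD45B and CCNG1 in AZC + MG132 cells kept direction and 2-fold under each of 10 alternatives that gave a value (2.15 to 2.72 and -1.57 to -1.09), and BTG1 stayed between 0.30 and 0.71 under 11. Alternatives that use only some of the bins divide by the total depth in those bins, unlike the regional levels and folds given above. GADD45B in CRISPR cells was past 2-fold under 5 of 10 and ranged from 0.58 to 1.04. Members past 2-fold in CRISPR cells (1) numbered 0 with coding bins only, coding bins without the first 20 and last 20, the first 100, the last 100, values as deposited and 4 times the minimum, and 2 with no minimum. In AZC + MG132 cells (2) they numbered 0 at 4 times the minimum, where 1 was compared, and 3 of 8 with no minimum. The median of the members was -0.21 in AZC + MG132 cells with the last 100 coding bins, and in CRISPR cells -0.0082 without the first 20 and last 20 coding bins, -0.0871 with the last 100 and -0.0465 with no minimum; the cause was not tested. All genes past 2-fold numbered 419 (coding bins without the first 20 and last 20), 617 (first 100), 600 (last 100), 42 (4 times the minimum) and 657 (no minimum) against 237 in AZC + MG132 cells, and 342, 635, 598, 29 and 743 against 181 in CRISPR cells, fewer genes being compared at the higher minimum and more without one. A minimum of 100 covered coding bins, chosen after seeing the data, left both member counts as they were. No paired analysis was possible because the tables hold no column per sample, and for the same reason no replicate could be left out. The median 5′ shift in CRISPR cells was 0.49 with the first 40 coding bins and 0.53 with coding bins 6 to 20, against 0.90. BTG2 in each table, and CDKN1A and PLK2 in the tables that list them, were under the minimum.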

Other observations

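Of 12 relatives of the members 7 were compared in AZC + MG132 and 6 in CRISPR cells, none of these past 2-fold, with medians of -0.14 and 0.21. SESN3 was above the minimum in parental cells alone, at 2.33 in AZC + MG132 against 6.81 in parental cells, a log2 ratio of -1.55 outside that count. CDKN1B, the relative of CDKN1A that encodes p27, was compared in every table, with levels of 27.5 in parental, 37.5 in CRISPR and 33.1 in AZC + MG132 cells. Its depth lay in different places: the 5′ UTR level of CDKN1B was 4.44, 14.0 and 19.0 in that order and its coding level 22.6, 21.4 and 12.8. The 5′ UTR share of CDKN1B was 16.1% in parental, 37.2% in CRISPR and 57.5% in AZC + MG132 cells, the same order as for GADD45B and BTG1.

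SESN2, the relative of SESN1 induced by both p53 and ATF4, had levels of 6.73 in parental, 5.36 in CRISPR and 11.8 in AZC + MG132 cells (log2 ratio 0.81), and the CRISPR value is under the minimum. SESN1 had its highest level in CRISPR cells and SESN2 its highest in AZC + MG132 cells; that difference was not tested. TOB2, an antiproliferative protein of the BTG family, stood at 11.1 in AZC + MG132 against 18.7 in parental cells (-0.75), and TOB1 at 10.9 against 13.6 (-0.32).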
